A study of Mus musculus with 6 samples.

Results

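Catecholamines reach brown adipocytes through adrenergic receptors, and 8 of the genes encoding these receptors are described here: Adrb1 and Adrb3 of the β class, Adra1a, Adra1b and Adra1d of the α1 class, and Adra2a, Adra2b and Adra2c of the α2 class. They were chosen by name from the RefSeq transcripts of the RNA sequencing table, in which each of the 8 has 1 RefSeq row among 22466 genes. Adrenergic receptors other than these were not analysed here. The cells were primary brown adipocytes of 129SvEvS1 mice, grown from the stromal-vascular fraction of interscapular brown fat of young males and differentiated in the dish. WT cells came from wildtype mice and Ucp1-KO cells from UCP1(-/-) mice, which lack functional uncoupling protein 1, on the same strain background, with 3 cultures of each genotype (WT replicates 10, 11 and 12, Ucp1-KO replicates 13, 14 and 15). Cells of both genotypes had been differentiated with isobutylmethylxanthine, indomethacin, dexamethasone, insulin, T3 and rosiglitazone and maintained with insulin, T3 and rosiglitazone. No adrenergic agonist is named for the sequenced cultures. The sources used here do not state how many mice stood behind a culture, so that p-values measure the spread between these cultures, which may be technical.

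Adrenergic receptors are receptors with 7 membrane-spanning helices that respond to noradrenaline and adrenaline. Receptors of the β class couple to Gs and raise cAMP, which activates protein kinase A and thereby lipolysis and heat production in brown fat. The α1 receptors couple to Gq and phospholipase C, and the α2 receptors couple to Gi and lower cAMP. The β3 receptor is known as the main β receptor of mature rodent adipocytes, whereas the β1 receptor is also found on their precursors.

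The receptor genes share a short coding stretch at the inner end of the third helix, where the codons for aspartate, arginine and tyrosine form a motif typical of this receptor class. It is shown because it places the 8 genes in their classes and because related stretches of this kind decide whether a short read can be assigned to 1 gene. Each line gives 57 coding bases of the GENCODE M21 transcript (GRCm38) closest in length to the RefSeq row, 5′ to 3′ on the coding strand, with the 9 bases of the motif in capitals.
Adrb1: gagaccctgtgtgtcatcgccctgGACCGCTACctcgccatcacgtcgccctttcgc
Adrb3: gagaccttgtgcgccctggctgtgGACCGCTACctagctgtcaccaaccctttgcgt
Adra1a: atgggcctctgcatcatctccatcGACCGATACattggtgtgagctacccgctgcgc
Adra1b: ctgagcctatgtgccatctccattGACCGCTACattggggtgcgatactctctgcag
Adra1d: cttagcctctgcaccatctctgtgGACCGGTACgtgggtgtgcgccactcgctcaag
Adra2a: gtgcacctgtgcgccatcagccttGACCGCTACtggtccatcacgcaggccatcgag
Adra2b: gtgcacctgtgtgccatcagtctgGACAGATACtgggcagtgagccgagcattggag
Adra2c: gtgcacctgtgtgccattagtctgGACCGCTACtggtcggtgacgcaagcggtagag

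Within this stretch the α2 genes shared between 41 and 46 of 57 bases with each other, the α1 genes between 40 and 42, and the β genes 40. Pairs from different classes shared between 26 and 37. Over the whole coding sequences, identical bases made up 55.1% of the longer sequence for Adrb1 and Adrb3, between 53.2% and 59.0% for the pairs of α1 genes and between 61.9% and 68.8% for the pairs of α2 genes. The 21 pairs from different classes ranged from 40.7% to 55.6%. In none of the 28 pairs did the annotated transcripts share a single window of 50 bases on either strand.

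**Figure D1:**
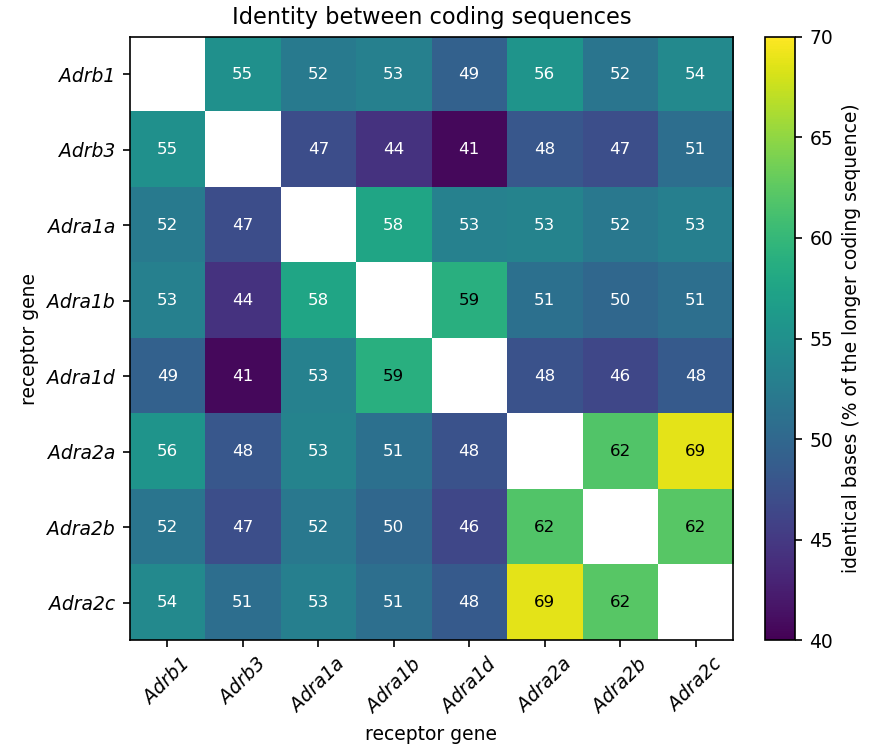
Identity between the coding sequences of the 8 receptor genes, as identical bases in percent of the longer sequence of each pair (color scale from 40% to 70%). The 3 pairs of α2 genes lie between 61.9% and 68.8%, above all 21 pairs from different classes, which reach at most 55.6%.

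The genes are spread over the mouse genome. In RefSeq coordinates of GRCm38, Adrb1 lies on chromosome 19 from 56722117 to 56725150 and Adrb3 on chromosome 8 from 27225776 to 27230845. Adra1a spans chromosome 14 from 66635251 to 66771240, Adra1b chromosome 11 from 43774605 to 43901250 and Adra1d chromosome 2 from 131545357 to 131562497. Adra2a is located on chromosome 19 from 54045259 to 54048982, Adra2b on chromosome 2 from 127363179 to 127367221 and Adra2c on chromosome 5 from 35278566 to 35281763. The coding sequence lies in 1 exon in Adrb1 and the α2 genes, and in 2 exons in Adrb3 and the α1 genes. GENCODE places the antisense genes Gm45470 and Gm14285 over exons of Adrb3 and Adra1d. The library kit does not mark strand, so that reads of these receptors and of their antisense partners cannot be told apart.

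Abundance was deposited in RPKM, the reads on a transcript divided by its length and scaled to the mapped reads of the culture, so that levels of different genes can be compared. Whole read numbers were recovered from these values with totals between 14989604 and 17727655 reads per culture. In Ucp1-KO cells the Ucp1 transcript itself was at 307 to 409 RPKM, against 981 to 1775 RPKM in WT cells, without overlap. Even this difference did not pass the test over all transcripts (log2 fold change -1.78, limma unadjusted p = 1.57e-04, adjusted p = 0.868), so that a missed threshold does not show equal levels. All 7 adipocyte markers were abundant, with a summed level between 29461 and 33260 RPKM over the 6 cultures. Markers of stromal cells (618 to 1680 RPKM, 9 genes), mural cells (55.2 to 352 RPKM, 6 genes), macrophages (11.1 to 157 RPKM, 5 genes) and endothelium (2.91 to 34.8 RPKM, 6 genes) were also present, none at 0 in all cultures. Skeletal muscle markers summed to between 2.80 and 11.4 RPKM (6 genes) and neuronal and Schwann cell markers to between 7.39 and 11.1 RPKM (7 genes), with Th and Dbh at 0. In such bulk samples, fewer cells of a type and less RNA per cell cannot be told apart.

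The 8 receptor transcripts together held between 3450 and 4763 reads per culture, and 7 of them had more than 3 reads in every culture. The exception was Adra2c, the α2C receptor. Adrb3 was the most abundant receptor in each of the 6 cultures, Adra1a, Adra1d and Adrb1 formed a group with means between 6.76 and 9.37 RPKM, and Adra1b, Adra2b and Adra2a were rare. No genotype difference passed the test over all transcripts. The genotypes were fully separated for 2 of the 8 receptors, with Adra1a higher and Adra1b lower in the Ucp1-KO cultures. Such a separation was seen for 11.2% of all 16865 transcripts tested, 6.04% with higher and 5.15% with lower values in the Ucp1-KO cultures. These transcripts had a mean of at least 0.5 RPKM, which Adra1b did not reach, and 1 receptor in each direction is too few for a share to be read against them.

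**Figure D2:**
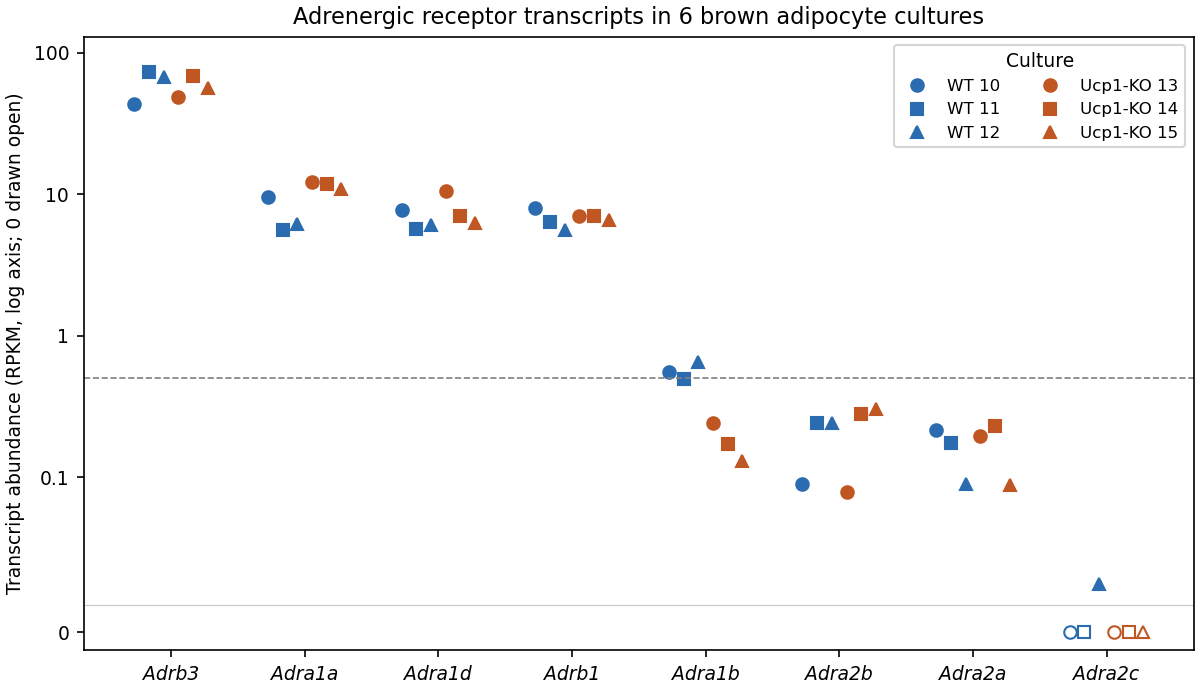
Transcript abundance of the 8 receptors in the 6 cultures in RPKM on a logarithmic axis, where blue symbols are WT and orange symbols Ucp1-KO cultures and open symbols at the bottom are values of 0. The dashed line marks the 0.5 RPKM mean needed for the test. Adrb3 lies between 43.3 and 73.0 RPKM, above every other receptor, and Adra2c has a single read in WT replicate 12.

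Adrb3, transcript NM_013462, encodes the β3 receptor. Its abundance was 43.3, 73.0 and 67.8 RPKM in WT replicates 10, 11 and 12, based on 2068, 3407 and 3361 reads. In Ucp1-KO replicates 13, 14 and 15 it was 48.7, 68.2 and 56.4 RPKM, based on 2197, 3286 and 2365 reads. The lowest values of the 6 cultures were those of WT replicate 10 and Ucp1-KO replicate 13, 1 from each genotype, and the genotypes overlapped. Averaged over all 6 cultures, Adrb3 reached 59.6 ± 11.97 RPKM (SD, n = 6) and place 924 among the 22466 RefSeq genes. The log2 fold change between genotypes was -0.06 with a 95% confidence interval from -0.58 to 0.45 (limma adjusted p = 0.971), an interval that leaves room for changes in both directions.

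Adrb1, transcript NM_007419, encodes the β1 receptor. It was found at 7.95, 6.35 and 5.64 RPKM in the WT and at 6.98, 7.08 and 6.53 RPKM in the Ucp1-KO replicates, with between 244 and 338 reads per culture. All 3 Ucp1-KO values fell between the lowest and the highest WT value. Over the 6 cultures Adrb1 had the smallest relative spread of all 8 receptors, with a coefficient of variation of 11.5%. Its mean was 6.65 ± 1.18 RPKM for WT against 6.87 ± 0.291 RPKM for Ucp1-KO (n = 3 cultures each, SD), and the log2 fold change was 0.05 with a 95% confidence interval from -0.26 to 0.36 (limma adjusted p = 0.960). Adrb3 was more abundant than Adrb1 by a factor of 5.45, 11.5 and 12.03 in the WT and 6.97, 9.63 and 8.64 in the Ucp1-KO replicates. This ratio overlapped between the genotypes (exact two-sided permutation test, p = 0.6), and it too was lowest in WT replicate 10 and Ucp1-KO replicate 13.

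Adra1a, transcript NM_013461, encodes the α1A receptor. WT replicates 10, 11 and 12 had 9.57, 5.56 and 6.14 RPKM, or 676, 384 and 450 reads. Ucp1-KO replicates 13, 14 and 15 had 12.2, 11.8 and 10.97 RPKM, or 816, 838 and 680 reads. Every Ucp1-KO value lay above every WT value, and WT replicate 10 stood closer to the Ucp1-KO cultures than to the other WT cultures. The mean was 7.09 ± 2.17 RPKM for WT against 11.6 ± 0.631 RPKM for Ucp1-KO (n = 3 cultures each, SD), a ratio of 1.64 (exact two-sided permutation test, p = 0.1). With 3 against 3 cultures this test cannot give a smaller p.

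On the scale of log2(RPKM + 1), Adra1a differed by 0.68 (standard error 0.18, 95% confidence interval 0.24 to 1.11), with an unadjusted limma p of 0.00823 and an adjusted p of 0.868. It was thus 1 of the 4 receptors tested that had an unadjusted p under 0.05, beside 5.54% of all 16865 transcripts tested. An adjusted p under 0.05 was reached by 0 of the 4 receptors, beside 0.0% of all transcripts, with the same count of 0 by limma-voom on the recovered reads. Without WT replicate 10 the log2 fold change of Adra1a was 0.88 (limma unadjusted p = 1.92e-04, adjusted p = 0.376), and without WT replicate 11 it was 0.54 (limma unadjusted p = 0.0278, adjusted p = 0.999). All 8 rows listed for Adra1a in the table, from RefSeq, Ensembl and cDNA annotations that overlap each other, had non-overlapping genotypes with a Ucp1-KO mean between 154% and 168% of the WT mean.

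Adra1d, transcript NM_013460, encodes the α1D receptor. Its values were 7.81, 5.66 and 6.08 RPKM in the WT and 10.6, 7.08 and 6.30 RPKM in the Ucp1-KO replicates, with between 226 and 409 reads. Ucp1-KO replicate 13 was the highest of all cultures, and the remaining Ucp1-KO values lay within the WT range. The log2 fold change was 0.24 with a 95% confidence interval from -0.23 to 0.71 (limma adjusted p = 0.889). Without Ucp1-KO replicate 13 it was 0.04.

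**Figure D3:**
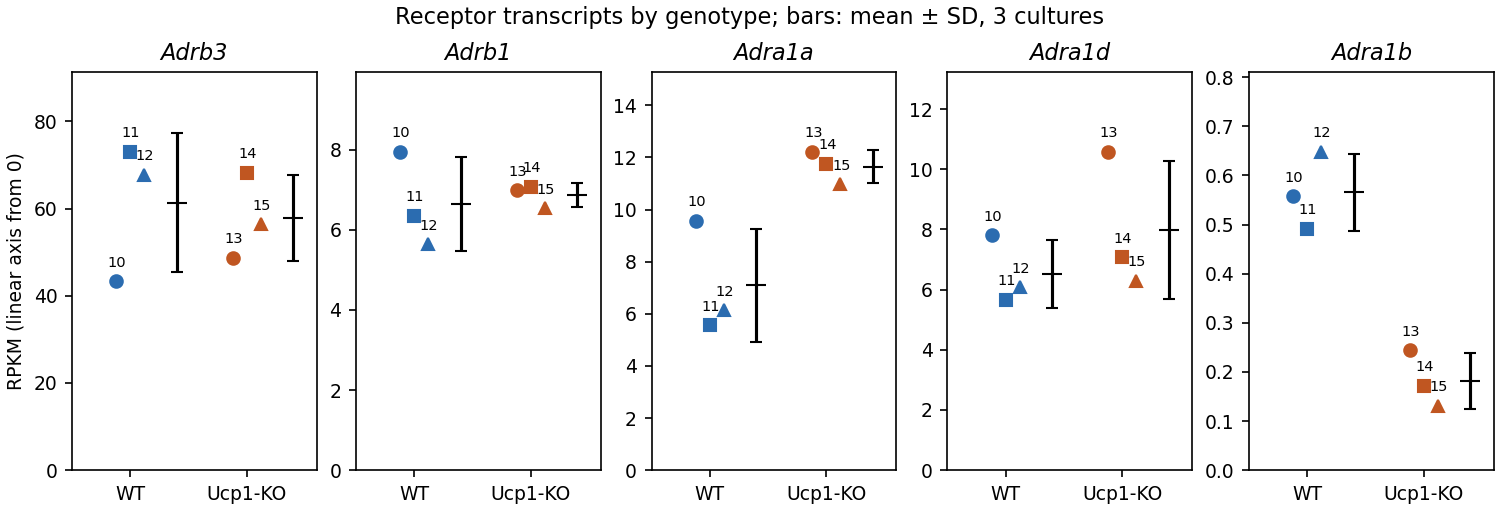
Abundance in RPKM (linear axes from 0) of 5 receptors in each culture, labelled by replicate number, with black bars for the mean ± SD of 3 cultures. The genotypes overlap for Adrb3, Adrb1 and Adra1d. They do not overlap for Adra1a (5.56 to 9.57 in WT, 10.97 to 12.2 in Ucp1-KO cells) and Adra1b (0.492 to 0.648 against 0.131 to 0.244).

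Adra1b, transcript NM_007416, encodes the α1B receptor and was present at low abundance only. WT replicates 10, 11 and 12 had 0.558, 0.492 and 0.648 RPKM, based on 29, 25 and 35 reads. Ucp1-KO replicates 13, 14 and 15 had 0.244, 0.171 and 0.131 RPKM, based on 12, 9 and 6 reads. All Ucp1-KO values were below all WT values and all were above the floor of 3 reads. The Ucp1-KO mean was 0.182 ± 0.0570 RPKM against 0.566 ± 0.0785 RPKM in WT cells (n = 3 cultures each, SD), 32.2% of the WT mean (exact two-sided permutation test, p = 0.1).

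With a mean of 0.374 RPKM, Adra1b was under the minimum of 0.5 RPKM and was not part of the main test. In limma-voom on recovered reads with a minimum mean of 5 reads, added once the values were known, its log2 fold change was -1.61 (standard error 0.35, 95% confidence interval -2.44 to -0.78, limma unadjusted p = 0.00244, adjusted p = 0.874). In that fit 2 of 7 receptors, Adra1a and Adra1b, had an unadjusted p under 0.05, beside 5.23% of the 18870 transcripts fitted in either direction and 3.18% with lower values in Ucp1-KO cells. Of these transcripts 0.0% had an adjusted p under 0.05, and 11.2% had genotypes that did not overlap. All 6 rows listed for Adra1b gave a Ucp1-KO mean between 31.0% and 35.9% of the WT mean, although these rows count largely the same reads.

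Marker lists of other cell types pointed in different directions, and no marker in them had an adjusted p under 0.05 (limma). All 6 mural and smooth muscle markers had negative log2 fold changes (median -0.84, against 0.00 over all transcripts tested), with summed levels of 352, 231 and 188 RPKM in the WT and 272, 80.2 and 55.2 RPKM in the Ucp1-KO replicates. The 8 stromal and preadipocyte markers tested also had negative log2 fold changes (median -0.48, range -1.20 to -0.08), with summed levels of 719, 1680 and 1012 RPKM in the WT and 978, 910 and 618 RPKM in the Ucp1-KO replicates. The summed levels of both lists overlapped between the genotypes. Of the 6 mural markers 2, and of the 8 stromal markers 2, were lower at an unadjusted p under 0.05, beside 3.24% of all transcripts. Of the 3 skeletal muscle markers tested, 1 was higher at this threshold, beside 2.3% of all transcripts. Ly6a, the stromal marker nearest to 0, had the higher mean RPKM in Ucp1-KO cells, as had Dlk1, which was under the minimum for the test. Endothelial markers had negative log2 fold changes in 5 of 5 genes tested (median -0.41), whereas those of macrophages were positive in 4 of 5 (median 0.25), of skeletal muscle in 2 of 3 (median 0.31) and of neurons and Schwann cells in 2 of 3 (median 0.05). The part of these cells in the Adra1b values was not tested. The 7 adipocyte markers all had positive log2 fold changes (median 0.14, range 0.02 to 0.43), none with an unadjusted p under 0.05.

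Within the α1 class, the ratio of Adra1a to Adra1b, chosen after the values were seen, was 17.2, 11.3 and 9.47 in the WT and 50.1, 68.6 and 83.5 in the Ucp1-KO replicates. That the genotypes do not overlap in this ratio follows from the values of its 2 genes, so that no p is given for it. The summed α1 abundance was 17.9, 11.7 and 12.9 RPKM in the WT and 23.0, 19.0 and 17.4 RPKM in the Ucp1-KO replicates. Here WT replicate 10 exceeded Ucp1-KO replicate 15, so that the genotypes overlapped (exact two-sided permutation test, p = 0.2).

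The α2 receptors were close to the limit of detection. Adra2a, transcript NM_007417, had 0.216, 0.173 and 0.0890 RPKM in the WT and 0.195, 0.229 and 0.0878 RPKM in the Ucp1-KO replicates, from 5 to 15 reads per culture. Adra2b, transcript NM_009633, had 0.0893, 0.244 and 0.244 RPKM in the WT and 0.0787, 0.280 and 0.305 RPKM in the Ucp1-KO replicates, from 5 to 19 reads. For both genes the genotypes overlapped (exact two-sided permutation tests, p = 0.8 for Adra2a and p = 0.6 for Adra2b). The limma-voom intervals of their log2 fold changes ran from -1.13 to 1.35 for Adra2a and from -1.42 to 1.65 for Adra2b, so that changes of more than 2-fold in either direction lie within both intervals. Adra2b was lowest in WT replicate 10 and Ucp1-KO replicate 13, the cultures that were also lowest in Adrb3.

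Adra2c, transcript NM_007418, had 1 read in WT replicate 12, or 0.0176 RPKM, and 0 reads in the other 5 cultures. A count of 0 allows up to 3 reads, which for its transcript of 3198 bases corresponds to 0.0544 to 0.0626 RPKM in those 5 cultures, counting error only. Its transcript was not detectable above this level in either genotype.

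**Figure D4:**
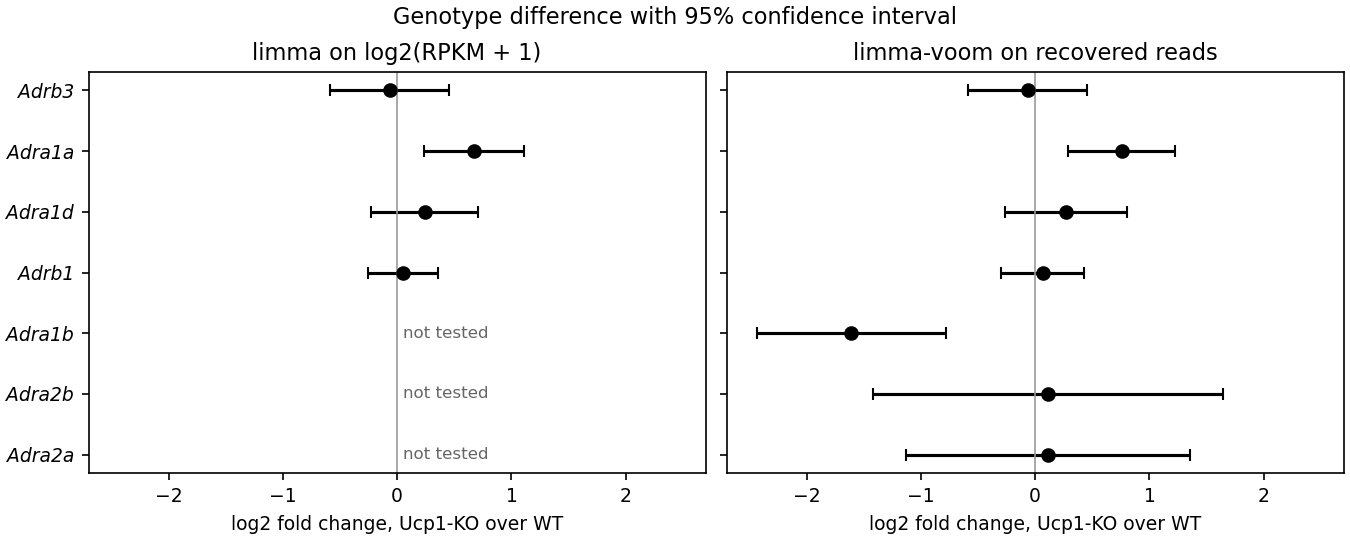
Log2 fold change between Ucp1-KO and WT cells (positive is higher in Ucp1-KO) with its 95% confidence interval for 7 receptors, by limma on log2(RPKM + 1) on the left and limma-voom on recovered reads on the right. The intervals of Adra1a (0.24 to 1.11 on the left) and Adra1b (-2.44 to -0.78 on the right) exclude 0 before adjustment, and those of Adra2a and Adra2b are the widest.

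In order of mean abundance, Adrb3 was followed by Adra1a with 9.37 ± 2.87 RPKM, Adra1d with 7.25 ± 1.80 RPKM and Adrb1 with 6.76 ± 0.780 RPKM (SD, n = 6 each). Adrb3 exceeded Adra1a in 6 of 6 cultures, by a factor between 3.99 and 13.1. Adra1a was above Adra1d in 5 and Adra1d above Adrb1 in 2 of the 6 cultures. In WT cells these 3 receptors overlapped, whereas in Ucp1-KO cells the lowest Adra1a value, 10.97 RPKM, lay above the highest of Adra1d, 10.6 RPKM, and of Adrb1, 7.08 RPKM. This order is that of the RefSeq rows. The 8 rows listed for Adra1a had WT means between 3.18 and 7.43 RPKM. In its lowest row, a cDNA annotation, the Ucp1-KO replicates had 5.48, 5.49 and 4.52 RPKM. The place of Adra1a among these receptors thus depends on the row. Adra1d and Adrb1 overlapped in both genotypes. Adrb1 was above Adra1b in 6 of 6 cultures, 8.70-fold or more. In WT cells the lowest Adra1b value, 0.492 RPKM, lay above the highest of Adra2b, 0.244 RPKM, and of Adra2a, 0.216 RPKM, whereas in Ucp1-KO cells the ranges of these 3 receptors overlapped. Adra2b and Adra2a overlapped in both genotypes, and all 3 exceeded Adra2c.

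The β3 receptor made up most of the receptor transcripts. Adrb3 made up 62.3%, 79.8% and 78.3% of the summed RPKM of the 8 genes in the WT and 61.6%, 72.0% and 69.9% in the Ucp1-KO replicates. The sum itself was 82.6 ± 11.6 RPKM for WT against 84.8 ± 8.67 RPKM for Ucp1-KO (n = 3 cultures each, SD, exact two-sided permutation test, p = 0.9). Both β receptors together contributed 81.8 ± 6.99% for WT against 76.0 ± 4.80% for Ucp1-KO (n = 3 cultures each, SD, exact two-sided permutation test, p = 0.3), and the α1 receptors 17.8 ± 6.99% and 23.6 ± 4.90%. The α2 receptors contributed less than 1% in every culture, with a highest share of 0.537%. The genotypes overlapped in each of these shares.

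**Figure D5:**
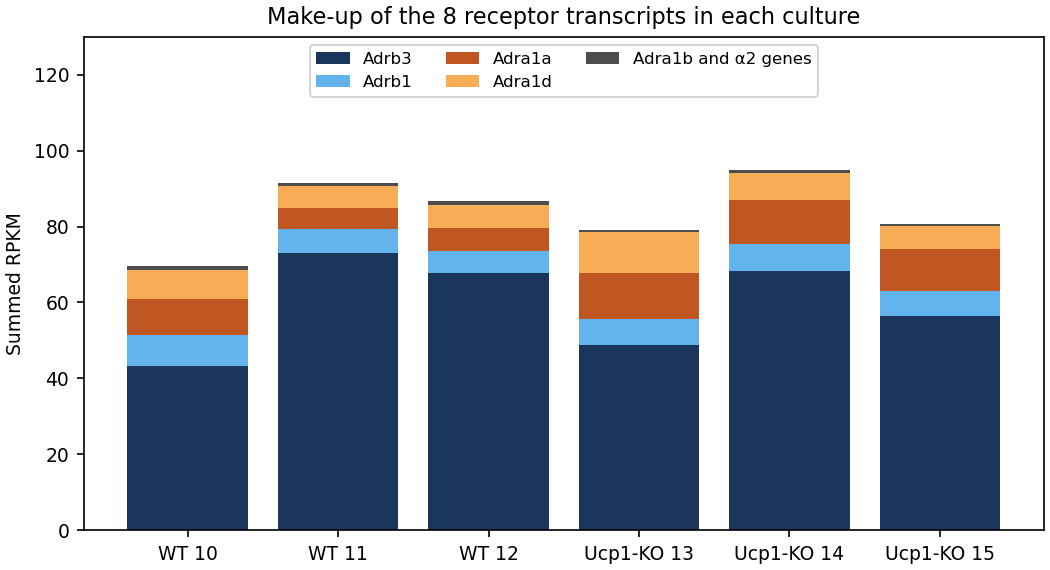
Summed RPKM of the 8 receptor transcripts in each culture (bars from 0), divided by receptor. Adrb3 contributes between 61.6% and 79.8% of each bar, with the lowest shares in WT replicate 10 and Ucp1-KO replicate 13, and the topmost segment joins Adra1b and the α2 genes.

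Receptors of related ligands gave a measure of how far such low levels reach. Of 25 receptors for dopamine, serotonin, histamine, acetylcholine (muscarinic) and trace amines, 0 had a mean of 0.5 RPKM or more and 9 had 0 reads in all cultures. Only 3 of the 25 had more than 3 reads in every culture, as had 7 of the 8 adrenergic receptors. The most abundant was Drd1a, a dopamine receptor, with 0.270 ± 0.0133 RPKM for WT against 0.450 ± 0.227 RPKM for Ucp1-KO, followed by the serotonin receptor Htr2b with 0.244 ± 0.131 and 0.390 ± 0.197 RPKM (n = 3 cultures each, SD). Adra1b in WT cells was above all of the 25 by its mean, whereas Adra2a and Adra2b were not. In Ucp1-KO cells the mean of Adra1b, 0.182 RPKM, was below those of Drd1a and Htr2b.

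On the side of the ligands, Th, Dbh and Pnmt, which encode enzymes of noradrenaline and adrenaline synthesis, had 0 reads in all cultures. Of 16 genes of catecholamine synthesis, transport and breakdown, 6 were abundant enough to be tested. Maoa, which encodes monoamine oxidase A, had 11.3 ± 2.83 RPKM for WT against 10.2 ± 0.853 RPKM for Ucp1-KO (n = 3 cultures each, SD). At an unadjusted p under 0.05, 1 of the 6 was lower in Ucp1-KO cultures, beside 3.24% of all transcripts, and 0 were higher, beside 2.3%. The lower gene was Maob, the monoamine oxidase B gene (log2 fold change -0.47, limma adjusted p = 0.868). The next smallest p belonged to the sulfotransferase gene Sult1a1 (0.33, limma adjusted p = 0.871). The median of the 6 genes was -0.07.

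G protein α subunits carry the signal from the receptor to its enzyme. The Gnas locus, which encodes Gs, had 793 ± 78.1 RPKM for WT against 918 ± 119 RPKM for Ucp1-KO, and Gnai2, which encodes a Gi subunit, 82.1 ± 18.6 and 70.6 ± 15.9 RPKM (n = 3 cultures each, SD). Of 10 subunit genes 7 were tested, with 0 at an unadjusted p under 0.05 and a median log2 fold change of 0.03. The Gnas values are those of its most abundant row, a non-coding transcript that overlaps the coding ones, and the most abundant coding row of Gnas had a mean of 753 RPKM over all cultures with the same log2 fold change of 0.21. The smallest p-values were those of Gnas (0.21, limma adjusted p = 0.876) and of Gnai3, another Gi subunit gene (-0.16, limma adjusted p = 0.891).

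Receptor kinases and arrestins switch off activated receptors, and RGS proteins switch off G proteins. Of 11 such genes 10 were tested, of which 1 was higher and 1 lower in Ucp1-KO cultures at an unadjusted p under 0.05, beside 2.3% and 3.24% of all transcripts, and 0 at an adjusted p under 0.05. The former was Adrbk2, a receptor kinase gene, with 4.07, 3.55 and 4.27 RPKM in the WT and 4.29, 5.98 and 6.94 RPKM in the Ucp1-KO replicates (log2 fold change 0.42, limma adjusted p = 0.868). The latter was Rgs16, with 10.9, 17.9 and 12.2 RPKM in the WT and 10.6, 6.83 and 7.43 RPKM in the Ucp1-KO replicates (log2 fold change -0.65, limma adjusted p = 0.868). In both genes the genotypes did not overlap, by a narrow margin.

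The most abundant genes of this list were Rgs2, whose product acts on Gq, and Arrb1, which encodes an arrestin. Rgs2 was at 7.30, 18.8 and 15.1 RPKM in the WT and at 7.98, 18.1 and 14.9 RPKM in the Ucp1-KO replicates. As for Adrb3, its lowest values were those of WT replicate 10 and Ucp1-KO replicate 13. Arrb1 had 12.95 ± 1.97 RPKM for WT against 11.3 ± 2.65 RPKM for Ucp1-KO (n = 3 cultures each, SD).

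Among 20 genes of adenylyl cyclases, protein kinase A and phospholipase C β, 16 were tested and 1 had an unadjusted p under 0.05, a share close to the 5.54% of all transcripts. This was Prkar2b, a regulatory subunit gene of protein kinase A and the most abundant of the list, with 198 ± 36.0 RPKM for WT against 271 ± 41.1 RPKM for Ucp1-KO (n = 3 cultures each, SD, log2 fold change 0.46, limma adjusted p = 0.868), where the genotypes overlapped. Prkaca, which encodes a catalytic subunit, had 130 ± 8.66 and 128 ± 16.6 RPKM (n = 3 cultures each, SD). Plcb3, a phospholipase C gene downstream of Gq, had 14.9 ± 1.04 and 12.8 ± 1.44 RPKM (n = 3 cultures each, SD, limma adjusted p = 0.871). Over the 16 genes the median was 0.05.

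Of 12 genes known to respond to cAMP, 11 were tested and 0 had an unadjusted p under 0.05, with a median log2 fold change of 0.08. Elovl3, a fatty acid elongase gene, was the most abundant, with 130, 40.5 and 57.9 RPKM in the WT and 225, 108 and 116 RPKM in the Ucp1-KO replicates (log2 fold change 1.06, standard error 0.46, limma adjusted p = 0.868). As for Adra1a, WT replicate 10 was the highest of the WT cultures, and here it lay within the Ucp1-KO range. Gadd45g, a stress response gene, followed with 33.5 ± 12.9 RPKM for WT against 36.8 ± 14.3 RPKM for Ucp1-KO (n = 3 cultures each, SD). Nr4a1, an immediate early gene of the nuclear receptor family, had 2.48 ± 0.0694 RPKM for WT against 1.90 ± 0.254 RPKM for Ucp1-KO without overlap (n = 3 cultures each, SD, limma adjusted p = 0.868).

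The genes whose values followed each receptor most closely over the 6 cultures were looked up on the log2(RPKM + 1) scale among 7515 genes with a mean of at least 5 RPKM. The coefficients describe 6 cultures, whose values for all genes come from the same 6 libraries, and carry no p. They were picked as the highest of 7515, so that their size does not show joint regulation. Adrb3 was followed most closely by Orai3, a calcium channel gene (Pearson's r = 0.995), Eif3g, a translation initiation factor gene (0.989), and Ugt1a6b, a glucuronosyltransferase gene that shares sequence with its family (0.988). For Adra1a these were Slc35a3, a nucleotide sugar transporter gene (0.993), Tmem186 (0.991) and the glutathione transferase gene Gstm1 (0.991), the last with close paralogs. For Adra1d they were Cpeb2, an RNA-binding protein gene (0.996), Cav1 (0.993) and 1110057K04Rik (0.990), and for Adrb1 the orphan nuclear receptor gene Nr2f6 (0.987), Cyth2 (0.972) and the quinone reductase gene Nqo2 (0.970). Cav1, which encodes caveolin 1, a membrane protein of caveolae abundant in adipocytes, was at 368, 271 and 302 RPKM in the WT and 507, 358 and 312 RPKM in the Ucp1-KO replicates.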

How the data were processed

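RNA of 6 cultures was sequenced as single reads. The authors mapped them to the mouse genome (GRCm38), counted those with a unique match on annotated transcripts with Genomatix tools and deposited the result as RPKM; CASAVA and bcl2fastq are named per the labels, and the aligner is not given in the sources used here. The deposited unit is not a count, so that a test on log values was used; the study's count test was not run on the recovered reads. The genotypes were tested against each other in limma 3.58.1 under R 4.3.3 (empirical Bayes, intensity trend, log2(RPKM + 1), no covariates) over the 16865 RefSeq rows with a mean of at least 0.5 RPKM, with Benjamini-Hochberg adjustment and a threshold of 0.05. A log2 fold change on this scale understates that of rare transcripts. Single values were compared by exact permutation tests, which cannot go below 0.1.

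Library totals were found by requiring whole reads on Ensembl transcripts of known length. On these, between 95.8% and 96.1% of the low values of a culture were whole. For each RefSeq row, a length was then sought that makes its values whole reads. Such a length was found for 16865 of 16865 tested rows in all cultures (tolerance 0.1 reads). Because the length was fitted, this is no independent check of the totals. In simulated data, 5 of 300 transcripts whose values are not whole reads also passed. The scripts were tested on simulated data. Floors and read numbers cover counting error only, since PCR copies were not marked by molecular identifiers. Precision is limited by 3 cultures per genotype, and for Adra1b and the α2 genes also by depth.

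The receptors and all gene lists were chosen with earlier results of these data known. Named genes are the receptors, the 2 most abundant and the 2 with the smallest p-value of each list, and the 3 most similar to each tested receptor. Alternatives were another added constant, no minimum, 1 row per gene, all annotations, median-of-ratios scaling, limma-voom on reads and leaving out each culture, and, after seeing the data, limma-voom with at least 5 reads. Scripts ran in Python 3.11.15 with Biopython 1.88, scipy 1.17.1, pandas 2.3.3, matplotlib 3.10.9 and numpy 2.4.6. Values of some single genes were left out.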

Additional observations from a re-analysis of the deposited data

How the results depend on the processing

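Under every alternative run, 0 transcripts and 0 receptors had a limma adjusted p under 0.05. The number of transcripts with an unadjusted p under 0.05 was 935, 5193 among the rows of all annotations and 317 to 1754 with 1 culture left out (317 without WT replicate 11, 441 without WT replicate 12, 602 without Ucp1-KO replicate 14, 1542 without Ucp1-KO replicate 13 and 1754 without WT replicate 10). Without single cultures the log2 fold change lay between 0.54 and 0.88 for Adra1a and between 0.04 and 0.37 for Adra1d. It changed its sign for Adrb3 (-0.29 to 0.076) and Adrb1 (-0.045 to 0.17), and in limma-voom on reads for Adra2a (-0.25 to 0.49) and Adra2b (-0.34 to 0.71). For Adra1b it lay between -1.83 and -1.42 in limma-voom and was -0.41 on log2(RPKM + 1) without a minimum, a scale on which added 1 RPKM outweighs its level. The other alternatives changed no direction, and kept the log2 fold change of Adra1a between 0.68 and 0.76. No paired analysis was possible because the genotypes share no replicate number. Depth limits Adra1b, Adra2a and Adra2b to 35 reads or fewer per culture.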

Other observations

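The table lists Adrb1 in 3 rows, 1 of which differs from the others. The RefSeq row and a cDNA row of 2146 bases had Ucp1-KO means of 103% and 107% of the WT mean. The short cDNA row AK039569, of 435 bases, had 11.2, 9.78 and 10.5 RPKM in the WT and 8.83, 9.47 and 7.51 RPKM in the Ucp1-KO replicates, a Ucp1-KO mean of 82.0% of the WT mean without overlap (exact two-sided permutation test, p = 0.1). It rests on 83, 71 and 81 reads against 62, 71 and 49 reads. The row was singled out after its values were seen.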
